A study of Mus musculus with 4 samples.

Results

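The peaks described here lie on the proximal part of mouse chromosome 17, with their midpoint between 8.5 and 40 Mb on mm9. This interval was chosen by position alone. It takes in the t-complex, clusters of vomeronasal type 2 receptor and zinc-finger genes, and the mouse major histocompatibility complex (MHC), which is called H2 and was set apart from 33900000 to 38000000. It held 517 of the 37778 peaks of the list, 49 of them in the H2 region. A distal interval of the same chromosome, from 64 to 95 Mb, held 479 peaks and served for comparison. The study mapped FLAG-tagged MBD1 in dentate gyrus of C57BL6 mice aged about 9 weeks. All 4 libraries came from the FLAG-tagged Mbd1 line: 2 were ChIP libraries made with an anti-FLAG antibody and 2 were input libraries made without antibody. Untagged animals were not analysed here, so excess over input cannot be told apart from background of the antibody. The list gives 1 set of values for the libraries together. Replicate error is thus unknown for all values below. The 95% intervals cover counting or the spread over peaks, and nothing else.

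MBD1 carries a methyl-CpG-binding domain and zinc-finger motifs of the CXXC type, and is known as a repressor that recruits histone methylation to methylated DNA. In the dentate gyrus it is known for its part in adult neural stem cells. The t-complex is a stretch of proximal chromosome 17 on which mouse populations carry inversions that distort transmission through males. Vomeronasal type 2 receptors detect peptide pheromones in the vomeronasal organ, and KRAB zinc-finger proteins silence retrotransposons. H2 class I genes present peptides to cytotoxic T cells and class II genes to helper T cells, while the class III stretch between them holds complement, tumour necrosis factor and many housekeeping genes.

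The gene table at hand, RefSeq on GRCm38.p6, is of another build than the peaks, so peaks were not assigned to genes. The table serves only for the order of gene families. It places 80 protein-coding genes from Vmn2r90 to Vmn2r117, of which 72 are vomeronasal receptors, formyl peptide receptors or zinc-finger genes of the Zfp series. Between Vmn2r117 and H2-K1, a classical class I gene at the proximal end of H2, follow 290 protein-coding genes. From H2-K1 to H2-M2 there are 169, and 46 olfactory receptor genes stand between H2-M5, a class I-like gene, and Esp36, the first of 15 exocrine-gland-secreted peptide genes. The chromosome holds 38 protein-coding genes named H2, 9 of them class II. The label of the interval rests on its position and could not be checked against genes. The sequence under the peaks was not analysed here.

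The density of peaks in the proximal interval did not differ from the distal one beyond its counting interval. The median width of its peaks was larger than that of the distal ones, though the 95% intervals overlapped. Its peaks more often met the stricter limits of the list. It held 16.4 peaks per Mb against 15.5, a ratio of 1.06 with an exact 95% interval of 0.936 to 1.21. The other autosomes had 15.6 per Mb, and the ratio to them was 1.05 (0.964 to 1.15). Peaks covered 8.93% of the proximal interval (2814 kb) and 6.94% of the distal one (2151 kb). The median width was 4025 bp (95% interval 3748 to 4486) against 3600 bp (3195 to 3882). Median ChIP was 57.1 reads per bin (56.6 to 57.6) against 57.9 (57.4 to 58.5), with overlapping intervals. Input, the denominator of the ratio, was lower, at 10.6 reads per bin (10.4 to 10.9) against 11.9 (11.5 to 12.4). For the deposited log2 ratio (ChIP over scaled input) the median was 1.32 (1.29 to 1.36) in the proximal and 1.19 (1.15 to 1.23) in the distal interval. Where only peaks at or above the list's median input were kept, these medians were 0.996 (0.963 to 1.04) and 0.942. The rest of chromosome 17 was close to the proximal interval in coverage, at 9.32%, and in median width, at 3759 bp (3582 to 3951).

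**Figure D1:**
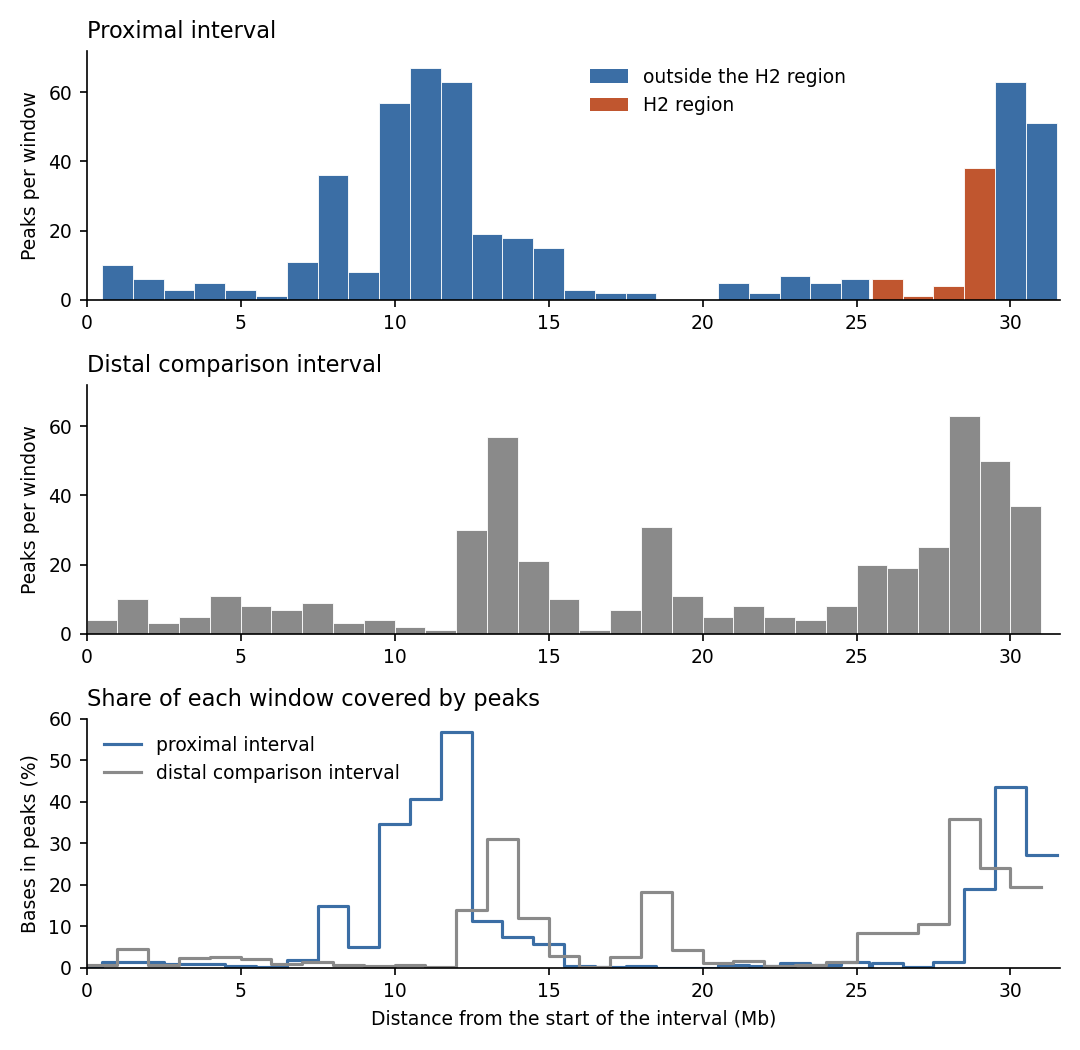
Number of peaks in each window (upper panel: proximal interval, H2 region in orange; middle panel: distal comparison interval) and percent of bases covered by peaks (lower panel) against the distance in Mb from the start of each interval. Windows are 1 Mb wide at whole Mb, except where the borders at 8.5 Mb and at the start of H2 cut one; the proximal peaks pile up in 2 stretches, with a highest window of 67, and the 7 windows of 30 or more hold 375 of 517 peaks.

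Peaks were distributed very unevenly along the interval. Its 31 windows of 0.9 or 1 Mb held 0 to 67 peaks, with a median of 6. In the distal interval they held 1 to 63, with a median of 8. A window with 30 or more peaks is called dense here, a limit chosen after the counts were seen. The proximal interval had 7 dense windows with 375 peaks (72.5%), the distal interval 6 with 268 (56%). Windows with 3 peaks or fewer numbered 10 and 5, and 2 proximal windows had none. The variance of the window counts was 27.7 times their mean in the proximal and 18 times in the distal interval. Intervals of densities, which treat peaks as independent, are therefore narrower than the spread between windows.

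From 9 to 16 Mb, the first part after the proximal border, peaks were few and narrow. The windows held 10, 6, 3, 5, 3, 1 and 11 peaks in order, 39 in all, with a median width of 1540 bp and 1.03% of bases covered. Median ChIP here was 69.2 reads per bin and median input 15.4, both above the medians of the whole interval. At 16 Mb the number went to 36, and at 17 Mb back to 8, where the median width was 6123 bp.

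The densest stretch lay from 18 to 21 Mb, with 57, 67 and 63 peaks in its 3 windows. Its 187 peaks covered 1320 kb, 44.0% of the stretch. Their density, 62.3 per Mb, was 4.0 times that of the other autosomes (3.44 to 4.62). The window from 20 to 21 Mb was covered to 56.7%, with a median width of 7170 bp and 18 peaks of 10 kb or more. Among the 2342 autosomal windows of 1 Mb that held a peak, 5 had more peaks than the window at 19 Mb, and 4 had a larger summed width than the window at 20 Mb. Its peaks were not high. Median ChIP was 55.2 reads per bin, median input 9.77 and the median log2 ratio 1.40, and none of its peaks exceeded 100 ChIP reads per bin.

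Peaks in this stretch often followed each other with gaps under 10 kb. Joined across such gaps, the proximal interval formed 249 runs, of which 23 held 5 peaks or more, with 179 peaks together. The distal interval formed 318 runs, of which 8 held 5 or more, with 49 peaks. The median gap between neighbours was 9354 bp against 17284 bp. The longest proximal run reached from 18489200 to 18646320, 157 kb with 13 peaks that covered 56.7% of it. The most nearly continuous of the large runs, from 20296940 to 20424187, had 11 peaks over 127 kb, covered 85.0% of that length and included 4 peaks with a mean p of at most 0.05, a limit that 3.17% of the whole list met. The run from 20542004 to 20665144 had 11 peaks over 123 kb and was covered to 78.3%.

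The 6 widest peaks of the interval show how broad and how shallow this enrichment was. Of these, 5 lay between 19.5 and 20.9 Mb. The widest, from 20236448 to 20267132 (30685 bp), held 54.0 ChIP and 10.7 input reads per bin. The fold, which is the summed ChIP count over the scaled summed input, was 2.08 (1.97 to 2.20 by counting). From 20598000 to 20626799 (28800 bp) the fold was 2.35 (2.22 to 2.50), and from 20809200 to 20836586 (27387 bp) it was 1.94 (1.84 to 2.04). The lowest of the 6, from 19546491 to 19572999, had a fold of 1.86 (1.76 to 1.96), and the highest, from 20357394 to 20382448, 2.65 (2.49 to 2.82). The sixth lay in the other dense stretch, from 38842387 to 38868977 (26591 bp), at 2.40 (2.26 to 2.55). All 6 folds lay between 1.86 and 2.65, although the counting intervals of most pairs did not overlap.

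The windows from 21 to 24 Mb held 19, 18 and 15 peaks, fewer with each Mb, with a median width of 3786 bp and 8.09% of bases covered. One of the peaks here differed from all others of the interval. It was 311 bp long, from 23235746 to 23236056, and its ChIP signal of 169.7 per bin stood over no input read at all. Set against 3 input counts, the floor used where no input was read, its fold was 70.1. Its counting interval, used to rank it among the others, begins lower, at 56.8, so 70.1 is not a lower bound. The highest bin and the summit pile-up were both 170, so its 3 inferred bins held nearly equal counts. Whether the same reads were counted in more than 1 bin is unknown. If they were, both 70.1 and 56.8 are too high.

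From 24 Mb to the H2 border the interval was almost bare. The 9.9 Mb held 32 peaks, 3.23 per Mb, which is 0.207 times the density of the other autosomes (0.142 to 0.293). They covered 0.55% of bases. The windows held 3, 2, 2, 0, 0, 5, 2, 7, 5 and 6 peaks. The longest gap between neighbours in the interval, 2035 kb, reached from 26970400 to 29005399, and another of 1118 kb ended at 26885645. None of the 32 peaks was 10 kb wide. Their median width was 1594 bp, less than the 5400 bp of the densest stretch.

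The peaks of this bare stretch were few but high in ChIP, and their input was high as well. Their median log2 ratio was 1.27 (0.935 to 1.64), an interval that includes the 1.32 of all 517 proximal peaks. Median ChIP was 82.6 reads per bin and median input 17.7, and 11 of the 32 peaks exceeded 100 ChIP reads per bin, against 21 of all 517. The quality flag, which the authors set and which coincided with a smallest p of at most 0.0001, was carried by 20 of 32 (62.5%, 43.7 to 78.9%). These bounds include the 47.6% of the whole proximal interval but not the 30.8% of the whole list. The peak from 25765673 to 25767599 had 261 ChIP and 20.9 input reads per bin, 5.16-fold (4.48 to 5.97). From 31600983 to 31602780 it was 202 over 18.1, 4.62-fold (3.96 to 5.40), and from 31355064 to 31356543 it was 130 over 11, 4.89-fold (3.93 to 6.16). The stretch also held weak peaks, such as one from 30861173 to 30863653 at 1.49-fold (1.29 to 1.72).

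The H2 region fell into a bare part and a dense end. Its 49 peaks, 12.0 per Mb, were 0.700 times as dense as the rest of the proximal interval (0.510 to 0.940) and covered 5.29% of bases. In order, the windows from 34 Mb held 6, 1, 4 and 38 peaks, and the 0.1 Mb before them none. So 38 of the 49 lay in the last Mb, and the 3.1 Mb before it held 11, which is 3.55 per Mb and 0.228 times the density of the other autosomes (0.114 to 0.407). This split was seen in the counts before it was described. Median width in the H2 region, 4025 bp (3377 to 4750), and median log2 ratio, 1.28 (1.14 to 1.40), had intervals that overlapped those of the rest of the interval, at 4040 bp (3726 to 4533) and 1.33 (1.29 to 1.37). Peaks of 10 kb or more were rarer in it, at 1 against 57 in the rest, a ratio of densities of 0.117 (0.003 to 0.680).

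Of the 11 peaks in the bare part, 6 stood between 34.3 and 34.7 Mb. The first, from 34346028 to 34346717, had 104 ChIP reads per bin and was 2.17-fold over scaled input (1.70 to 2.79). The next 3 were weaker, at 1.52-fold (1.34 to 1.72) from 34455200, 1.93-fold (1.64 to 2.29) from 34497804 and 1.61-fold (1.38 to 1.90) from 34626089. From 34646556 to 34647357 ChIP reached 109 reads per bin, 2.79-fold (2.20 to 3.56), and its neighbour from 34655971 was 1.76-fold (1.45 to 2.14). These peaks had an input of 15.1 to 19.8 reads per bin, above the 10.8 of the H2 region as a whole. After them came a gap of 1095 kb, then a single peak from 35752056 to 35752899 at 2.51-fold (1.90 to 3.36), and then another gap of 868 kb.

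That second gap ended at the peak with the most ChIP reads per bin of the interval. It was 991 bp wide, from 36621179 to 36622169, with a mean ChIP of 1639 and a highest bin of 3529, while its mean input was 8.83. The fold was 76.7 (58.6 to 102), and its deposited log2 ratio 5.78. The summit lay at 36621651 with a pile-up of 2480. The peak carried the quality flag, but its mean p was 0.065, above the limit of 0.05. No other peak of the H2 region exceeded 109.2 ChIP reads per bin, and none of the interval 267. The next peaks were again ordinary: 1.56-fold (1.43 to 1.70) from 36730884 over 8358 bp, 1.67-fold (1.48 to 1.90) from 36809760, and 2.14-fold (1.77 to 2.62) from 36943302. Copies of its sequence at other places were not looked for.

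**Figure D2:**
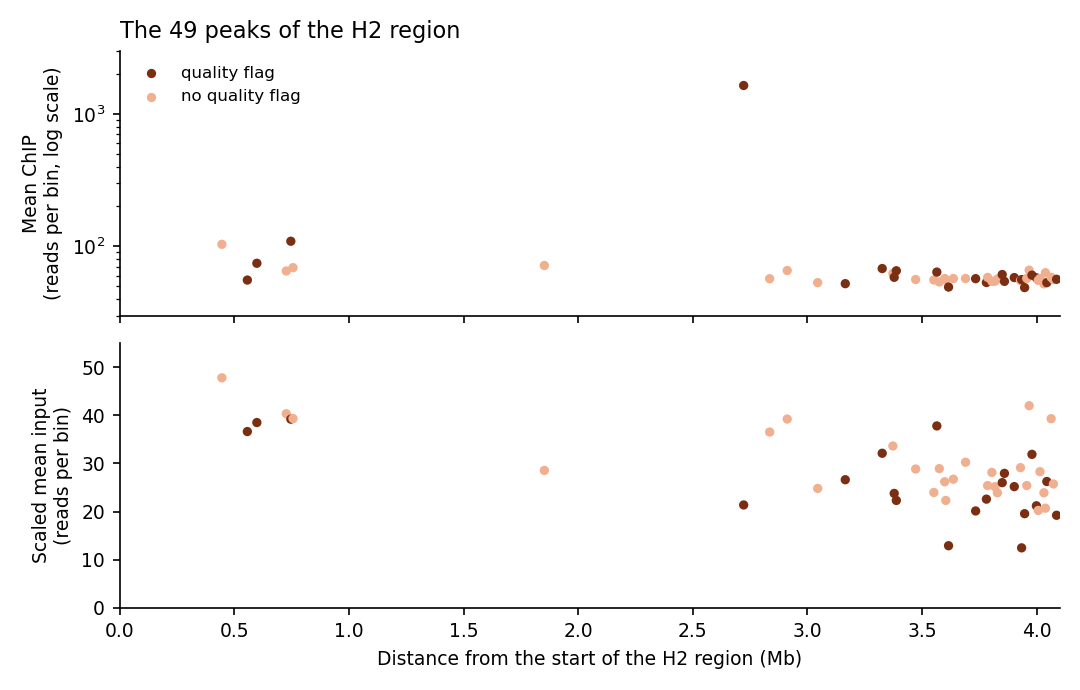
Mean ChIP reads per bin (upper panel, log scale) and scaled mean input reads per bin (lower panel) of the 49 peaks of the H2 region against the distance in Mb from its start. Each point is a peak at its midpoint, dark with the quality flag and pale without it; 1 peak at 1639 reads per bin stands far above the others, and 38 of 49 crowd in the last Mb.

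The last Mb of the H2 region was close to the stretch after it in median width and ChIP, but not in coverage. From 37 to 38 Mb the 38 peaks had a median width of 4676 bp, a median ChIP of 56.8 and input of 10.6 reads per bin, and covered 18.9% of bases. From 38 to 40 Mb, outside the H2 border, 63 and 51 peaks covered 35.4%, with a median width of 4947 bp and a median ChIP of 56.4. Peaks of 10 kb or more numbered 1 of 38 (2.63%, 0.0666 to 13.8%) before the border and 18 of 114 (15.8%, 9.63 to 23.8%) after it. Strict peaks numbered 3 (7.89%, 1.66 to 21.4%) and 19 (16.7%, 10.3 to 24.8%). For both, the exact intervals overlapped. The strongest peaks of the H2 region after the one above all lay in its last Mb. From 37831814 to 37835679 the fold was 4.50 (3.67 to 5.56), from 37514200 to 37515974 it was 3.81 (2.83 to 5.25), from 37982400 to 37989999 2.93 (2.60 to 3.32), from 37631000 to 37635399 2.83 (2.42 to 3.32), and from 37936600 to 37938380 3.05 (2.40 to 3.93). Their ChIP counts, 49.2 to 63.2 reads per bin, were not high. Their input, 5.15 to 8.56 reads per bin, was below the median of the H2 region, and how far it accounts for these folds was not tested. The H2 border cut through a run of peaks: the last inside began at 37982400 and the first outside at 37999400, with 2.93-fold and 2.08-fold (1.69 to 2.58).

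The distal border at 40 Mb cut the same dense stretch. The last peak inside, from 39972508 to 39974199, was 2.01-fold (1.62 to 2.52) and the first outside, from 40016885 to 40020901, 2.24-fold (1.92 to 2.63). From 40 to 42 Mb another 83 peaks followed, 41.5 per Mb. The proximal border lay in a gap. The first peak inside, from 9281750 to 9283484, held a mean of 116 ChIP and 17.6 input reads, 2.72-fold (2.32 to 3.21), whereas the last outside, from 8130029 to 8134788, had 51.0 ChIP reads per bin and no input read. That outer peak closed a block of 10 peaks from 7941430 to 8134788 whose median input was 0, 9 of them without a single input read. None of that block entered the interval. Input-poor peaks, with under 0.25 times the median input of the list, numbered 2 of 517 inside it (0.387%, exact 95% interval 0.0469 to 1.39%), against 1.09% of the whole list and 3 of 479 in the distal interval. They were the peak at 23235746 and one from 39539489 to 39540373 with 11 input counts in all, at 8.94-fold (4.91 to 18.2).

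Strict peaks, with a mean p over their bins of at most 0.05, were more frequent than in the distal interval. They numbered 45 of 517 (8.70%, exact 95% interval 6.42 to 11.5%), against 3.17% of the whole list and 10 of 479 (2.09%, 1.01 to 3.81%) in the distal interval. Per Mb there were 1.43 against 0.323, a ratio of 4.43 (2.20 to 9.86). The quality flag was carried by 246 (47.6%, 43.2 to 52.0%), against 30.8% of the whole list and 155 of 479 (32.4%, 28.2 to 36.8%). The sources used here do not give the definition of p, so both are narrower sets and not peaks past a known test. The excess was not one over the rest of chromosome 17, where 100 of 1057 peaks were strict (9.46%, 7.76 to 11.4%) and the ratio of densities was 0.867 (0.596 to 1.25). For flagged peaks the ratio to the rest of chromosome 17 was 1.10 (0.939 to 1.29). Without 59 to 62 Mb, where 34 of 155 peaks were strict, and without input-poor peaks, the ratio for strict peaks was 2.44 (1.52 to 3.96). That stretch was chosen after its values were seen, and leaving out a stretch rich in strict peaks raises the ratio by construction. The dense stretches of the proximal interval stayed in. This ratio therefore does not show an excess over the rest of the chromosome.

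Most strict peaks lay in the dense stretches, but so did most peaks: the dense windows held 72.5% of all proximal peaks. From 18 to 21 Mb they numbered 17 of 187 (9.09%), and from 37 to 40 Mb 22 of 152 (14.5%), 3 of them inside the H2 region; the remaining 6 were spread over the other windows. Dense proximal windows had a strict share of 10.4% (39 of 375, 7.50 to 13.9%). The other proximal windows had 4.23% (6 of 142, 1.57 to 8.97%), and these intervals overlapped. Dense distal windows had 1.12% (3 of 268, 0.231 to 3.24%) and the 422 windows with 30 or more peaks on other autosomes 2.60% (470 of 18076, 2.37 to 2.84%). Windows that passed the same limit of density thus differed in their strict share. A high share was not particular to the proximal interval. From 59 to 62 Mb on the same chromosome, with 51.7 peaks per Mb and 49.5% of bases covered, it was 21.9% (15.7 to 29.3%). The bare part of H2 had none among its 11, for which the exact interval reaches 28.5%. Strict proximal peaks were wide, with a median of 7177 bp, while the 10 strict distal peaks had a median of 1651 bp and 114 ChIP reads per bin.

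**Figure D3:**
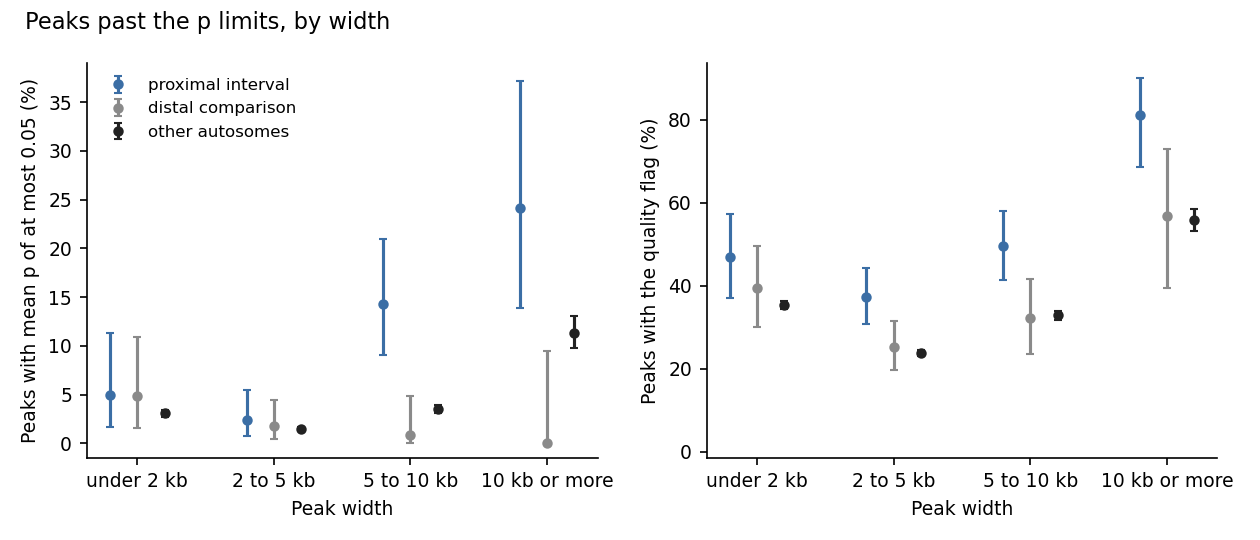
Percent of peaks with a mean p of at most 0.05 (left) and with the quality flag (right) by peak width, in the proximal interval, the distal comparison interval and the other autosomes. Points are shares and bars exact 95% intervals; at 5 to 10 kb the strict share is 14.3% in the proximal interval, 0.893% in the distal interval and 3.48% on the other autosomes.

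Width was compared because the strict share was highest at 10 kb or more in the proximal interval and on the other autosomes. In the distal interval it was highest under 2 kb, at 4.81%. Peaks of 10 kb or more made up 58 of 517 (11.2%, 8.63 to 14.3%) against 37 of 479 (7.72%, 5.50 to 10.5%), and their density was 1.54 times that of the distal interval (1.00 to 2.40). On the other autosomes they made up 3.99%, but on the rest of chromosome 17 11.7% (9.85 to 13.8%). The ratio of their densities to the rest of chromosome 17 was 0.902 (0.648 to 1.24). From 5 kb upwards the strict share within a width class was still higher in the proximal interval. At 10 kb or more, 14 of 58 proximal peaks were strict (24.1%, 13.9 to 37.2%), against 0 of 37 distal ones, for which the interval reaches 9.49%, and 163 of 1440 on the other autosomes (11.3%, 9.73 to 13.1%). At 5 to 10 kb, 21 of 147 were strict (14.3%, 9.07 to 21%), against 1 of 112 (0.893%, 0.0226 to 4.87%). Below 5 kb the shares had overlapping intervals, at 5.00% and 4.81% under 2 kb and 2.36% and 1.77% from 2 to 5 kb. The share with the quality flag was highest at 10 kb or more in each set, but did not rise steadily with width. At 10 kb or more it was 81.0% (68.6 to 90.1%) in the proximal interval. In the distal interval it was 56.8% (39.5 to 72.9%), and on the other autosomes 55.8%. From 2 to 5 kb it was 37.3%, 25.2% and 23.7%, below the 47.0%, 39.4% and 35.4% under 2 kb. Because 1 bin of low p was enough for the flag, wide peaks, which have more bins, meet it more easily by construction. Any relation to width beyond this was not tested.

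**Figure D4:**
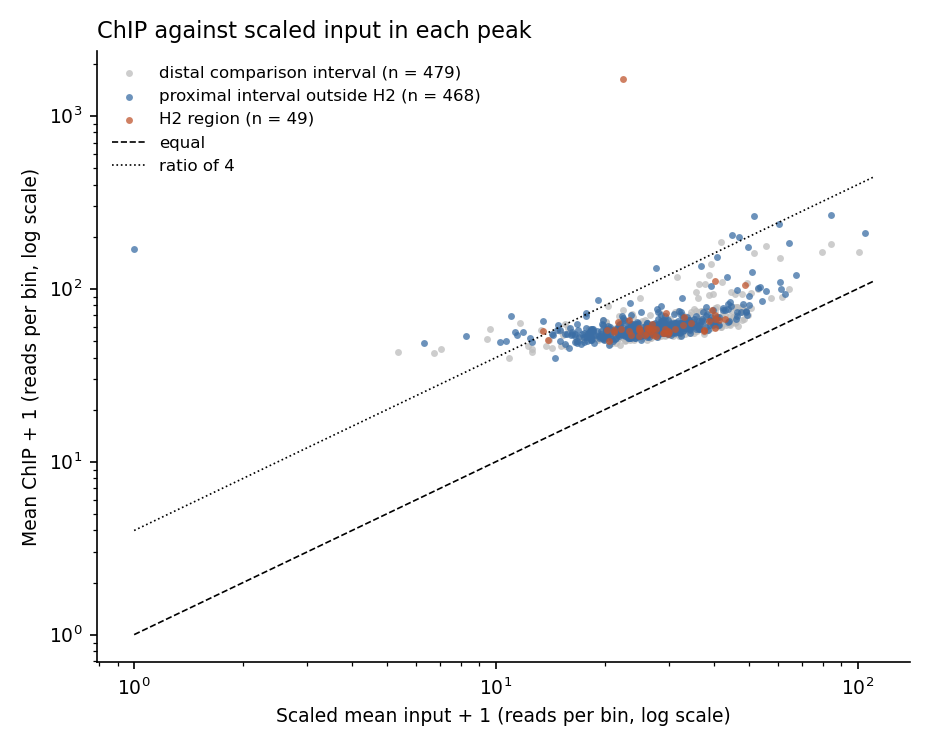
Mean ChIP against scaled mean input for each peak, both in reads per bin with 1 added on log axes, for the H2 region (49 peaks), the rest of the proximal interval (468) and the distal comparison interval (479). The dashed line marks equal values and the dotted line a ratio of 4; most peaks form one band between the lines, the H2 peak at 1639 reads stands far above it and the peak without input far to the left.

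ChIP and input varied together from peak to peak. Across the 517 proximal peaks Spearman's rho of ChIP with input was 0.62 (Pearson's r 0.17), and across the 479 distal ones 0.68 (r 0.67). Without the peak at 36621179, which has the highest ChIP, the proximal r was 0.62. A log2 ratio above 2 was reached by 42 proximal peaks (8.12%, 5.92 to 10.8%), against 7.73% of the list, so high ratios were about as frequent here as elsewhere. In the distal interval 27 did (5.64%, 3.75 to 8.10%), and the ratio of densities was 1.53 (0.922 to 2.58).

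**Figure D5:**
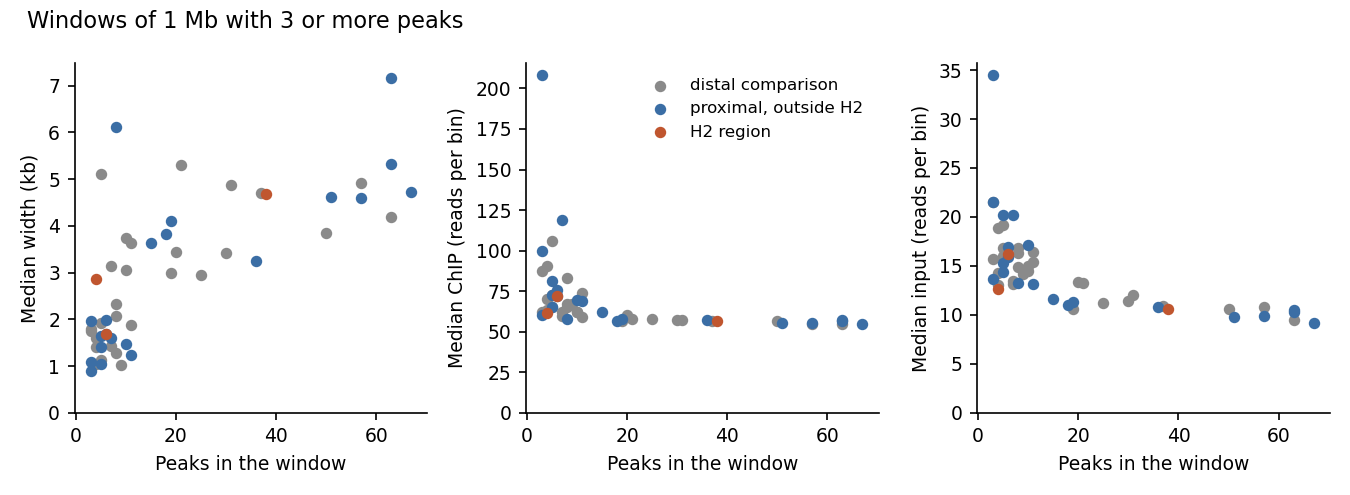
Median width, median ChIP and median input of the peaks in each window against the number of peaks in it, for windows with 3 or more peaks (24 proximal, 28 distal). Points are windows; those with many peaks hold wider peaks with ChIP near 56 reads per bin and input near 10, and windows with few peaks spread widely upwards in both.

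Windows with many peaks held wide peaks of low ChIP and low input. Over the 24 proximal windows that held at least 3 peaks, the number of peaks had a Spearman's rho of 0.77 with median width (Pearson's r 0.77), -0.79 with median ChIP (r -0.39), -0.84 with median input (r -0.59) and 0.57 with the median log2 ratio (r 0.62). The distal interval gave 0.69, -0.80, -0.73 and 0.28 over 28 windows. Neighbouring windows are not independent, and all share the same libraries, so no p is given. In dense proximal windows median ChIP was 56.0 and median input 10.05 reads per bin, and in the others they were 65.4 and 13.5. No dense window of either interval held a peak above 100 ChIP reads per bin; all 21 such peaks of the proximal interval and all 14 of the distal one lay outside them. Such peaks were narrow, with a median width of 1480 bp in the proximal interval, and 20 of the 21 carried the quality flag.

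The strongest peaks by the lower end of the counting interval came from dense and from bare stretches. After the peak at 36621179 and the one without input, the next 10 had folds from 4.28 to 8.94. From 20708566 to 20710318 the fold was 7.22 (5.00 to 10.8), with 52.4 ChIP and 3 input reads per bin, and from 15738332 to 15739558 it was 6.83 (4.69 to 10.3), with 68.4 over 4.14. From 22735133 to 22736588 it was 5.37 (3.79 to 7.86) and from 20303718 to 20305550 5.09 (3.73 to 7.12), both with under 5 input reads per bin. From 9396185 to 9397353, in the sparse first part, ChIP was 197 and input 19 reads per bin, 4.28-fold (3.58 to 5.15). Peaks picked by a high fold must have low input or high ChIP, so these values fall into a pair of kinds by that choice. The first are peaks of ordinary ChIP over low input. The second are peaks with a ChIP of 130 to 261 and an input of 11 to 20.9 reads per bin. The latter lay in windows with 2 to 10 peaks. From 13398830 to 13400872 ChIP was higher still, 267 reads per bin, but over 34.5 of input, which gave 3.20-fold (2.87 to 3.57). The 3 strongest distal peaks, from 91888087, 92738000 and 91842411, were all of the first kind, with 9.64-fold (4.98 to 21.4), 7.27-fold (4.58 to 12.2) and 6.70-fold (4.47 to 10.5) over 1.80 to 3.57 input reads per bin.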

How the data were processed

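The deposited list holds 1 line per peak for 4 libraries. The submitters' processing notes name Bowtie 0.12.7 and mm9. The sources used here do not name the peak caller or say how libraries were pooled. Per the file headers, the mean ChIP and input of a peak are signal in reads per bin, and its maximum is a count in 1 bin. The authors scaled the input by a factor of 2.42. The authors also gave each peak a log2 ratio, averaged over bins, and the deposited −log10 values are of the mean and smallest p of a peak's bins. A false discovery rate of 0.20 stands in the name of the list. Library totals, and so depth, are unknown.

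Members were taken by midpoint, and windows were cut at whole Mb and at the start of the interval and of H2. Covered bases were clipped to the interval. Bins per peak are not given and were inferred as the number nearest to width over 200 bp that made both sums whole (tolerance 1e-06 reads); in the interval 80.9% of peaks came within 1 of width over 200. Folds divide summed ChIP by scaled summed input, with exact binomial intervals, or a floor of 3 counts at an input of 0. Shares have Clopper-Pearson and medians binomial 95% intervals, and ratios of densities exact conditional ones; reads are not independent molecules, so these cover counting only. Peaks named are the 12 with the highest lower bound, the 6 widest and the 3 highest in ChIP; 6 of H2 and 3 of the distal interval by lower bound; and those at borders. Peaks named beyond this rule, which are the other peaks between 24 and 37 Mb, and the runs and stretches were chosen after their values were seen. Members, limits and gene families were chosen with earlier results of these data known. Calculations were tested on simulated data. The work used scipy 1.17.1, numpy 2.4.6 and pandas 2.3.3 under Python 3.11.15, with matplotlib 3.10.9 for figures.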

Additional observations from a re-analysis of the deposited data

How the results depend on the processing

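Under a mean p of at most 0.05, the quality flag, and ChIP at or above the median, the interval kept 45, 246 and 188 peaks; its density relative to the distal interval was then 4.43, 1.56 and 0.877 in place of 1.06, and its median log2 ratio 1.53, 1.47 and 1.19 in place of 1.32. The limits themselves reduce the number of peaks. By covered bases the ratio to the distal interval was 1.29, and among strict and flagged peaks 14.97 and 2.05. Among peaks with input no lower than the median of the list, the median log2 ratio was 0.996 against 0.942 in the distal interval, and from mean counts with 1 added it was 1.14 against 1.02. The strict share was 0.580% and 37.1% with limits of 0.01 and 0.10, against 0.209% and 18.6% in the distal interval. The strict density turned from 4.43 to 0.867 when set against the rest of chromosome 17. The input-poor share was 4.06% with a border at 0.5 times the median. The H2 density relative to the rest was 0.477 (0.0946 to 1.49) among strict peaks, 0.207 with H2 borders at 34 and 37 Mb, and 0.208 without 37 to 38 Mb, in place of 0.700. The cause of these shifts was not tested. Merging peaks under 1 kb apart, leaving out input-poor peaks, taking peaks wholly inside, and starting windows at 8.5 Mb moved no result beyond its interval or by more than 1.5 times. With windows from 8.5 Mb, though, 6 were dense and held 63.1% of the peaks, in place of 7 with 72.5%. Of 17 named folds, the deposited ratio gave a value inside the counting interval in 10, above it in 6 and below it in 1. The dense-window limits, H2 without its last Mb, the correlation without the highest peak and the deposited ratio as a fold were added after seeing the data. So was the rest of chromosome 17 as comparison for strict peaks, both whole and without 59 to 62 Mb and input-poor peaks. No paired analysis was possible because ChIP and input values are given for the libraries together, and no replicate could be left out for the same reason.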
